A study of Mus musculus with 88 samples.

Results

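Mmp8, Mmp9 and Adam8, 3 genes for metalloproteases of neutrophils, were followed in whole blood of lupus-prone mice after an injection of pristane. They were selected by gene symbol from the probe annotation of the array, as 3 of 17097 genes with a probe set assigned to a single gene. For a gene with several such probe sets, the brightest by its mean across the 88 arrays stood for the gene. Mmp8 (Entrez 17394) was read by probe set 1449366_PM_at and Adam8 (Entrez 11501) by 1416871_PM_at. Mmp9 (Entrez 17395) was read by 1416298_PM_at, with a second probe set, 1448291_PM_at, kept as a check. In the GRCm38.p6 assembly Mmp8 lies at chr9:7558429-7568486, Mmp9 at chr2:164940326-164955850 and Adam8 at chr7:139978932-139995207.

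All 3 proteins are zinc-dependent proteases. Mmp8, the neutrophil collagenase, cuts fibrillar collagens, and Mmp9, gelatinase B, cuts denatured collagen and the type IV collagen of basement membranes. Both are made as inactive precursors during neutrophil development in the bone marrow, packed into granules and released when the cell is stimulated, Mmp8 mainly from specific granules and Mmp9 mainly from gelatinase granules. Adam8 belongs to the ADAM family, whose members are anchored in the membrane and release the outer parts of other surface proteins, a process called shedding. It is carried by neutrophils, monocytes and other leukocytes.

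The mice were SNF1 females, the F1 cross of SWR with NZB mice, which develop lupus nephritis with age. Pristane, a hydrocarbon oil, was injected into the peritoneum at 9 weeks of age, and blood was taken 2, 4, 8, 12 or 14 weeks later from 8 treated mice and 8 untreated SNF1 mice per week. An 11th group of 8 untreated mice, 36 weeks of age and chosen by the study for proteinuria, had spontaneous disease. Week 36 is thus an age, while weeks 2 to 14 count from the injection, and with no disease-free mice of that age in these groups, age and spontaneous disease cannot be told apart. The labels do not say whether the same animals were bled at several weeks, and name no plate, scan date or other batch. The 88 arrays were 1 per sample, and p values measure only the spread between these samples.

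The labelled tissue carried its leukocyte markers, with the mean of 15 mature neutrophil markers between 6.69 and 9.89 on the log2 scale on every array. A pair of arrays stood apart. In pristane week 4 replicate 1 the mean of 10 interferon-induced genes was 6.62, against 8.96 to 9.70 in the other 7 arrays of its group, and its neutrophil marker mean was the lowest of the group at 7.48. Both means lay inside the ranges of the untreated arrays of week 4, which were 6.32 to 7.04 and 7.06 to 8.12. Pristane week 14 replicate 7 had the lowest neutrophil marker mean of its group, 8.01, with an interferon mean of 9.06 inside the range of the others. The untreated arrays of week 14 differed at many genes from those of week 2, as given below. Results that rest on the pair are given with and without them.

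The stretches just before the starts of Mmp8 and Adam8 are shown because both genes rose at the same weeks. They are the 250 bases upstream of the RefSeq start in GRCm38.p6, written 5′ to 3′ on the strand of the gene, with the letters that match a searched motif in capitals. The table used here holds no entry for Mmp9. The Mmp8 window is chr9:7558179-7558428 on the plus strand. The Adam8 window is chr7:139992563-139992812 on the minus strand, and it lies inside the outermost annotated bounds of the gene.
Mmp8: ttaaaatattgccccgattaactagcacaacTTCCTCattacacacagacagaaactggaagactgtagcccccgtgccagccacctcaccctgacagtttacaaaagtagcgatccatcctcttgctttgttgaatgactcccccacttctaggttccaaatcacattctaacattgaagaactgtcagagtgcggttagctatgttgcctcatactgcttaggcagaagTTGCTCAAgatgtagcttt
Adam8: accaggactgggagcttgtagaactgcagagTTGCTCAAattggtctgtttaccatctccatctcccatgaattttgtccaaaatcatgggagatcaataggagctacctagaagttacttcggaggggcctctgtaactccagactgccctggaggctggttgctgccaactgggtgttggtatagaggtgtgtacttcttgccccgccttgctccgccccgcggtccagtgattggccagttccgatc
Both windows held the same 8 letters, TTGCTCAA, which match the C/EBP pattern TTNNGCAA read on the opposite strand. C/EBP proteins are transcription factors of the granulocyte lineage. The match lay 19 to 12 bases before the start in Mmp8 and 219 to 212 bases before it in Adam8. The Mmp8 window also held the PU.1 pattern GAGGAA on the opposite strand, 219 to 214 bases before the start, and the 2 matches did not overlap. Over 32851 windows of the same length, searched on both strands, 9.56% held the C/EBP pattern and 23.3% the PU.1 pattern. Neither window held AP-1 (TGANTCA, in 6.75% of windows), NF-kB (GGG and CC with any 5 bases between them, in 45.8%) or the TATA box (TATAAA, in 12.4%).

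Mmp8, the collagenase, was higher after pristane at all 5 weeks, by 3.90-fold to 6.69-fold. Its log2 signal in untreated mice at week 2 ran from 5.70 through a median of 6.38 to 7.33, and after pristane from 7.67 through 8.74 to 9.43. At week 4 the untreated arrays ran from 5.06 through 6.06 to 7.87 and the pristane arrays from 6.72 through 9.54 to 10.21. At these weeks all 8 and 7 of 8 pristane arrays, respectively, lay above every untreated array, and the exception at week 4 was replicate 1, which stood apart above. At week 8 the untreated arrays ran from 6.12 through 7.03 to 7.70 and the pristane arrays from 8.89 through 9.70 to 10.35. At week 12 the 2 groups spanned 6.13 to 7.20 and 8.49 to 9.99, with medians of 6.49 and 8.95. At week 14 they spanned 6.26 to 7.66 and 7.98 to 10.18, with medians of 6.90 and 8.52. The groups did not overlap at weeks 2, 8, 12 and 14.

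The fold change of Mmp8 in the limma fit was 4.83 (95% confidence interval 3.04 to 7.69, adjusted p = 1.59e-06) at week 2 and 6.69 (4.20 to 10.66, adjusted p = 8.09e-09) at week 4. It was 6.18 (3.88 to 9.84, adjusted p = 3.86e-08) at week 8, 5.84 (3.67 to 9.30, adjusted p = 1.28e-07) at week 12 and 3.90 (2.45 to 6.20, adjusted p = 7.51e-06) at week 14. Without pristane week 4 replicate 1 the week 4 value was 8.50-fold, with an adjusted p of 7.64e-12. Ranked by log2 difference among the 17097 genes, Mmp8 stood between 16th, at week 12, and 35th, at week 14.

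**Figure D1:**
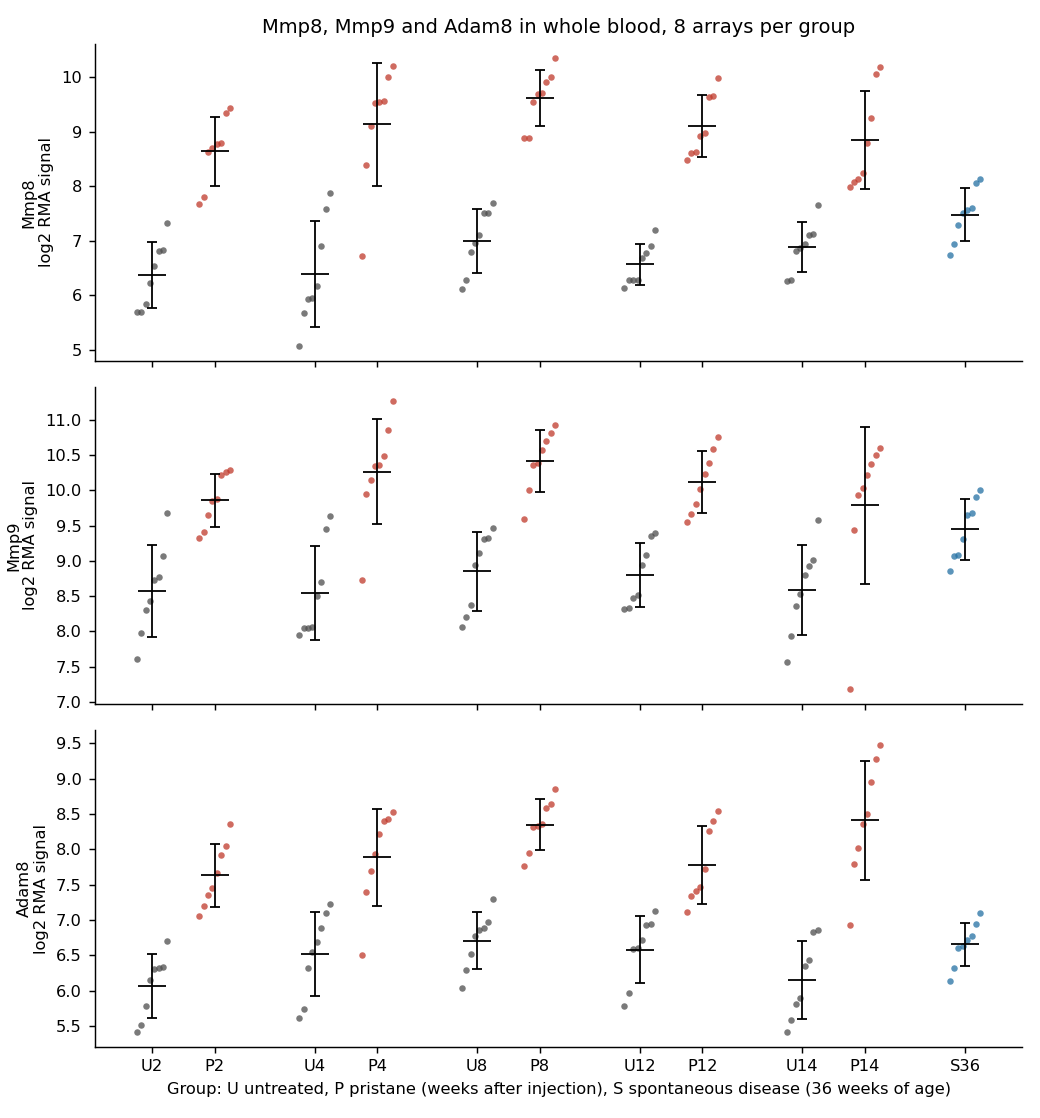
Log2 RMA signal of Mmp8, Mmp9 and Adam8 (vertical axes) in each of the 11 groups (horizontal axis), with 1 point per array, the mean as a dash and the SD as error bars (n = 8). The pristane arrays lie above the untreated arrays of the same week in nearly all cases, the spontaneous disease group lies between them for Mmp8 and Mmp9, and 1 pristane array at week 4 and 1 at week 14 lie low.

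Mmp9, the gelatinase, was also higher after pristane at all 5 weeks, by 2.29-fold to 3.29-fold. In untreated mice its log2 signal ran from 7.60 through a median of 8.58 to 9.68 at week 2, and in pristane mice from 9.33 through 9.87 to 10.28. At week 4 the 2 groups spanned 7.95 to 9.63 and 8.72 to 11.26, with medians of 8.28 and 10.35. Here 5 of 8 and 7 of 8 pristane arrays, respectively, exceeded every untreated array. At week 8 the groups spanned 8.06 to 9.47 and 9.60 to 10.92 with medians of 9.03 and 10.48, and at week 12 they spanned 8.32 to 9.39 and 9.55 to 10.76 with medians of 8.73 and 10.12. These were the weeks at which the Mmp9 groups did not overlap. At week 14 the untreated arrays ran from 7.57 through 8.66 to 9.58 and the pristane arrays from 7.18 through 10.13 to 10.60, and 6 of 8 pristane arrays lay above all untreated arrays. The value of 7.18 belonged to replicate 7 and was below every untreated array of that week.

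The fold change of Mmp9 was 2.44 (1.60 to 3.71, adjusted p = 0.00576) at week 2, 3.29 (2.16 to 5.00, adjusted p = 7.58e-05) at week 4 and 2.97 (1.95 to 4.52, adjusted p = 0.000388) at week 8. It was 2.51 (1.65 to 3.81, adjusted p = 0.00428) at week 12 and 2.29 (1.51 to 3.49, adjusted p = 0.00239) at week 14. Left out in turn, pristane week 4 replicate 1 moved the log2 difference of its week from 1.72 to 1.94 and pristane week 14 replicate 7 that of week 14 from 1.20 to 1.57. The second Mmp9 probe set was called at weeks 4, 8, 12 and 14, with log2 differences of 1.35, 1.23, 1.21 and 1.62. At week 2 it gave 0.54 (95% confidence interval -0.05 to 1.13, adjusted p = 0.354), so the Mmp9 call of that week held in 1 of its 2 probe sets.

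Adam8, the sheddase, rose at all 5 weeks as well, by 2.30-fold to 4.81-fold. Its log2 signal at week 2 ran from 5.42 through a median of 6.23 to 6.71 in untreated mice and from 7.06 through 7.56 to 8.36 after pristane. At week 4 the groups spanned 5.61 to 7.23 and 6.50 to 8.54, with medians of 6.62 and 8.08, and 7 of 8 pristane arrays lay above all untreated arrays. The 8th was again replicate 1. At week 8 the untreated arrays ran from 6.04 through 6.82 to 7.30 and the pristane arrays from 7.76 through 8.34 to 8.85. At week 12 they spanned 5.78 to 7.12 and 7.11 to 8.55, with medians of 6.66 and 7.60, and the lowest pristane array fell just under the highest untreated array. At week 14 they spanned 5.41 to 6.86 and 6.93 to 9.48, with medians of 6.12 and 8.43. The Adam8 groups did not overlap at weeks 2, 8 and 14.

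The fold change of Adam8 was 2.96 (2.06 to 4.24, adjusted p = 2.22e-05) at week 2, 2.59 (1.81 to 3.72, adjusted p = 0.000267) at week 4 and 3.12 (2.18 to 4.48, adjusted p = 8.79e-06) at week 8. It was 2.30 (1.60 to 3.30, adjusted p = 0.00232) at week 12 and 4.81 (3.36 to 6.90, adjusted p = 3.62e-10) at week 14. By log2 difference Adam8 ranked between 70th and 150th of all genes at weeks 2 to 12 and 19th at week 14. Without pristane week 4 replicate 1 the week 4 value was 2.98-fold. With the untreated mice of week 12 as control the week 14 value was 3.56-fold.

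By its brightest probe set, each of the 3 genes was thus called higher at each week, also when a change of more than 2-fold was required. The second Mmp9 probe set was not called at week 2. Among all 17097 genes, 2.29% were called higher at week 2, 2.18% at week 4, 1.85% at week 8, 2.7% at week 12 and 12.7% at week 14. With the 2-fold threshold the shares were 1.15%, 1.33%, 1.11%, 1.25% and 1.87%. The 2 groups were fully separated, with pristane higher, in 0.69% of genes at week 2, 0.152% at week 4, 0.667% at week 8, 0.801% at week 12 and 0.883% at week 14. The median log2 difference over all genes was 0.12 at week 14 and between -0.025 and 0.012 at the other weeks. In whole blood, more neutrophils and more RNA of a gene per neutrophil cannot be told apart. The mean of the mature neutrophil markers rose beside these genes, by 1.21 to 1.55 on the log2 scale across the weeks.

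**Figure D2:**
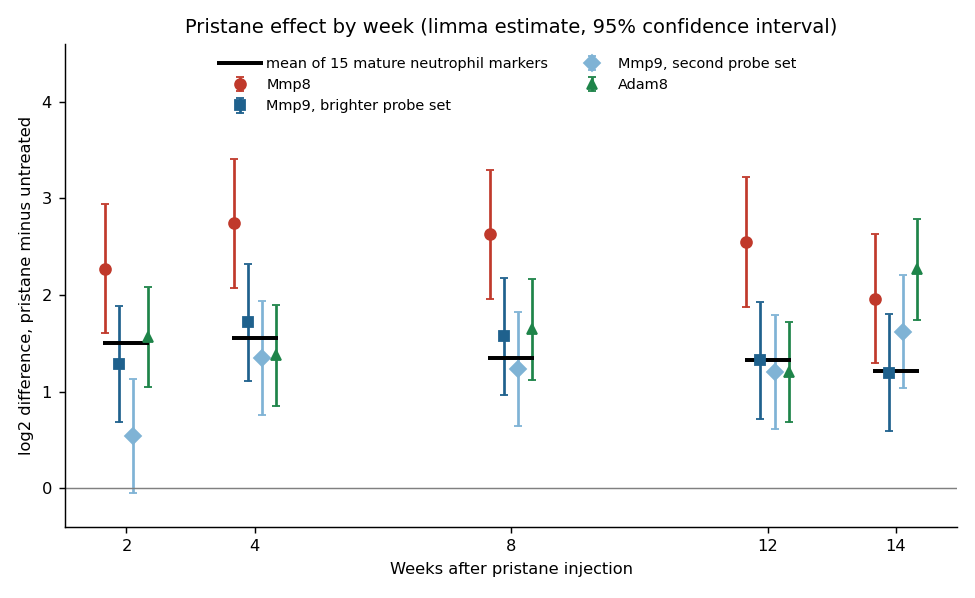
Log2 difference between pristane and untreated mice (vertical axis) by weeks after injection (horizontal axis), with points for the limma estimates and bars for their 95% confidence intervals. The black dashes give the difference of the mean of 15 mature neutrophil markers. Mmp8 lies above the dash at each week, the brighter Mmp9 probe set lies near it, and Adam8 lies near it up to week 12 and at 2.27 against 1.21 at week 14.

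The size of the pristane effect was then compared between weeks on the signals themselves. The test of treatment by week over all 5 weeks, which called 3.16% of all genes, called none of the 3 (limma F test, adjusted p = 0.763 for Mmp8, 0.887 for Mmp9 and 0.322 for Adam8). Taking the effect at week 14 minus that at week 2, 4, 8 or 12, 6.87%, 3.82%, 1.82% and 2.15% of all genes were called, and again none of the 3. Over the brightest probe set of each gene, Adam8 had the largest of these differences, 1.06 on the log2 scale between weeks 14 and 12 (95% confidence interval 0.33 to 1.80, adjusted p = 0.109) and 0.89 between weeks 14 and 4 (0.16 to 1.63, adjusted p = 0.170). Without pristane week 14 replicate 7 the first was 1.28, with an adjusted p of 0.0440. The second Mmp9 probe set gave 1.08 between weeks 14 and 2 (0.25 to 1.91, adjusted p = 0.101). For that probe set week 14 differed from week 2 by 0.35 in pristane mice and by -0.73 in untreated mice. For Mmp8 the effect at week 14 was lower than at week 4 by an estimate of -0.78, with an interval from -1.73 to 0.17.

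Within the untreated mice the 3 genes did not pass the test between any later week and week 2. Of all genes, 0.00585%, 0.193%, 0.205% and 24.3% were called at weeks 4, 8, 12 and 14. Over the brightest probe sets the largest value was an Adam8 difference of 0.63 at week 8 (0.11 to 1.15, limma adjusted p = 0.312). The second Mmp9 probe set gave a larger one of -0.73 at week 14 (-1.32 to -0.14, limma adjusted p = 0.0628). Within the pristane mice 0%, 0.333%, 1.23% and 12.3% of all genes were called at these weeks against week 2. At week 4, where limma called 0 genes, 595 genes had an unadjusted p under 0.05. Adam8 was higher at week 14 than at week 2 by 0.78 (0.26 to 1.30, adjusted p = 0.0384), and with only those 2 groups in the fit the adjusted p was 0.141. Mmp8 in pristane mice was 0.98 higher at week 8 than at week 2 (0.31 to 1.65) and did not pass the test after adjustment (adjusted p = 0.295). For Mmp9 no difference between weeks passed in either treatment.

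Ordered by their means, the 5 pristane groups held the top 5 places for each of the 3 genes. Mmp8 was highest in pristane mice at week 8, 9.62 ± 0.51 (SD, n = 8), and lowest in untreated mice at week 2, 6.37 ± 0.61. Mmp9 was likewise highest in pristane mice at week 8, 10.42 ± 0.44, while Adam8 was highest in pristane mice at week 14, 8.41 ± 0.84. Neighbouring groups in these orders differed by less than the larger of their SDs, with 1 exception for each gene. For Mmp8 it was the step of 1.16 from pristane week 2 to spontaneous disease, for Adam8 the step of 0.93 from pristane week 2 to untreated week 8, and for Mmp9 the step of 0.60 from spontaneous disease to untreated week 8.

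Spontaneous disease was set against the untreated mice of week 14. No gene of the array was called in this comparison (0%), while 594 genes had an unadjusted p under 0.05. Mmp9 in spontaneous disease ran from 8.86 through a median of 9.48 to 10.01, overlapping the untreated arrays, and its mean was 1.81-fold higher (95% confidence interval 1.19 to 2.75, limma adjusted p = 0.9999). Its log2 difference of 0.86 ranked 26th of all genes, and the second probe set gave 0.77. Mmp8 ran from 6.73 through 7.53 to 8.13, with a log2 difference of 0.60 (-0.07 to 1.27). Adam8 ran from 6.14 through 6.68 to 7.09, with a log2 difference of 0.51 (-0.01 to 1.03).

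Pristane mice at week 14 were also set against spontaneous disease, a comparison that called 10% of all genes. Mmp8 was 2.57-fold higher after pristane (1.62 to 4.09, adjusted p = 0.00405) and Adam8 3.38-fold higher (2.36 to 4.85, adjusted p = 1.50e-06). Mmp9 differed by 0.34 on the log2 scale (-0.26 to 0.95, adjusted p = 0.508), and its second probe set by 0.85 (0.26 to 1.44, adjusted p = 0.0522). Without pristane week 14 replicate 7 the first Mmp9 difference was 0.71 (adjusted p = 0.0949). Both comparisons of spontaneous disease used arrays that also entered the week 14 comparison of pristane with untreated mice.

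To describe each gene beside the neutrophil marker signal of the same array, the mean log2 signal of the 15 mature neutrophil markers was subtracted from it. The markers measured were S100a8, S100a9, Csf3r, Cxcr2, Il1r2, Trem1, G0s2, Mxd1, Clec4d, Clec4e, Pglyrp1, Lrg1, Stfa2l1, Stfa3 and Fpr2, with none of the 3 proteases among them. Ly6g, Retnlg and Fpr1 were also listed and had no matching probe set. Of the 15 measured, 14, 13, 11, 14 and 11 were called higher after pristane at weeks 2, 4, 8, 12 and 14. Among all genes the shares were 2.29%, 2.18%, 1.85%, 2.7% and 12.7%. Fpr2 and Cxcr2, receptors for formyl peptides and chemokines, were among the markers not called at week 14, with log2 differences of -0.23 and 0.00.

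Mmp8 rose by more than the neutrophil markers at all 5 weeks. The difference in excess of the markers was 0.77, 1.19, 1.27, 1.22 and 0.75 on the log2 scale at weeks 2, 4, 8, 12 and 14 (exact permutation test of 8 against 8 arrays, two-sided, adjusted p = 0.0140, 0.0133, 0.00140, 0.00140 and 0.0205 over 18 tests). At weeks 8 and 12 the groups did not overlap on this scale, and at each other week 5 of 8 pristane arrays exceeded the highest untreated array. How many of all genes separate on this scale was not determined. Set against 13 genes of immature neutrophil granules instead, which rose by 1.29 to 1.96, the Mmp8 excess was 0.92 at week 4 and 0.54 at week 14 and no longer passed there (adjusted p = 0.0748 and 0.139). It passed with that list at weeks 2, 8 and 12. The list was mixed, as Lcn2 on it rose by more than Mmp8 at each week and Elane on it was not called.

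The probe sets of Mmp9 disagreed on whether it kept pace with the neutrophil markers. For the brighter one, the differences in excess of the markers were -0.22, 0.17, 0.22, 0.00 and -0.02 at the 5 weeks, with exact permutation adjusted p from 0.250 to 0.993. For the second they were -0.96, -0.20, -0.12, -0.12 and 0.41. At week 2 the second probe set thus fell short of the markers, with no overlap between the groups (exact permutation test, adjusted p = 0.000932, chosen after the values were seen), and it did not pass at the other weeks. The markers rose by 1.50 at week 2 and the median gene changed by -0.025, so most genes fell short of them. The share of all genes without overlap on this scale was not computed. In spontaneous disease, where the markers differed by 0.35, Mmp9 exceeded them by 0.51 (exact permutation test, adjusted p = 0.0296), with 4 of 8 arrays above every untreated array of week 14, and the second probe set exceeded them by 0.42 (adjusted p = 0.0152). Against the immature granule genes the value of the brighter probe set was 0.57 (exact permutation test, adjusted p = 0.206). Minus the mature markers, that probe set averaged 1.32 in spontaneous disease and 0.82 in untreated mice of week 14. In untreated mice of weeks 2, 4, 8 and 12 it averaged 1.26, 1.10, 1.05 and 1.22. The second probe set averaged 0.03 in spontaneous disease and -0.39 in untreated mice of week 14. At the other untreated weeks it averaged 0.81, 0.32, 0.36 and 0.28. Spontaneous disease was tested against week 14 only.

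Adam8 exceeded the neutrophil markers at week 14 and did not differ detectably from them at weeks 2 to 12. Its differences were 0.06, -0.18, 0.29 and -0.12 at weeks 2, 4, 8 and 12, with exact permutation adjusted p from 0.314 to 0.711. At week 14 the difference was 1.05 (exact permutation test, adjusted p = 0.00466), and 6 of 8 pristane arrays exceeded all untreated arrays. The excess at week 14 was larger than that at week 2 by 0.99, at week 4 by 1.23, at week 8 by 0.76 and at week 12 by 1.18 (permutation test with 100000 draws, week labels permuted within treatment, adjusted p = 0.00152, 0.00102, 0.0377 and 0.00102 over 12 tests, a comparison chosen after the values were seen). Minus the markers, Adam8 averaged -1.24, -0.93, -1.10, -0.99 and -1.62 in untreated mice at weeks 2, 4, 8, 12 and 14. After pristane it averaged -1.18, -1.11, -0.81, -1.12 and -0.57. The untreated mean was thus lowest and the pristane mean highest at week 14, and both entered these differences. None of the 8 differences of this kind for Mmp8 and the brighter Mmp9 probe set passed. The second Mmp9 probe set gave 1.37 between weeks 14 and 2 (permutation test, adjusted p = 0.00135). From week 2 to week 14 its mean minus the markers went from 0.81 to -0.39 in untreated mice. After pristane it went from -0.15 to 0.02, so the untreated mice moved more. With the immature granule genes in place of the markers, the Adam8 difference between weeks was 0.57 against week 2 and 1.16 against week 8, and neither passed (permutation test, adjusted p = 0.529 and 0.0824). With that list the Adam8 excess at week 14 itself was 0.84 (adjusted p = 0.139). With the 4 markers that were not called at week 14 left out it was 0.71, against 0.14 or less at the other weeks, given here with no test since those markers were chosen by their values.

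**Figure D3:**
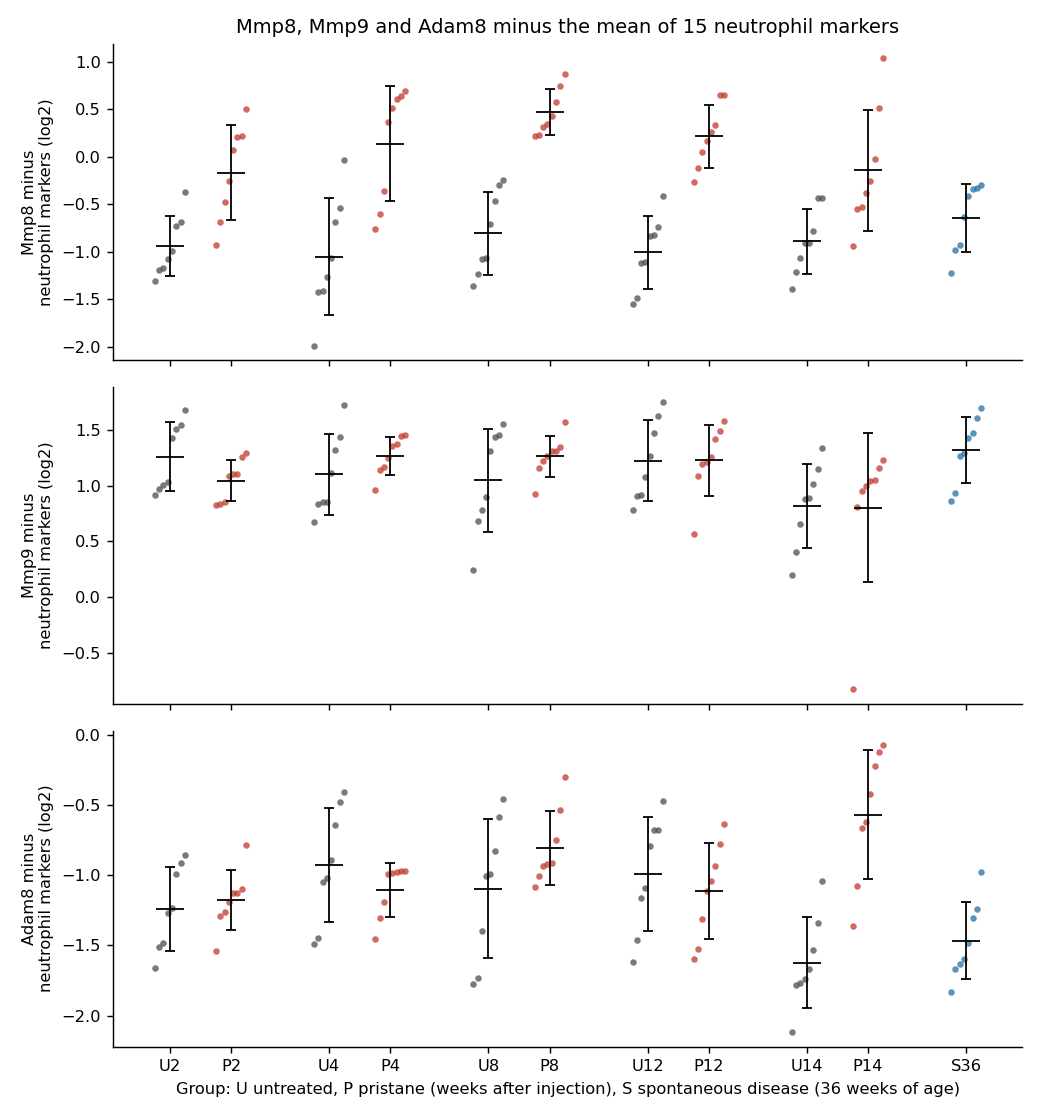
Log2 signal of each gene minus the mean of 15 mature neutrophil markers on the same array (vertical axes) in the 11 groups (horizontal axis), with 1 point per array, the mean as a dash and the SD as error bars (n = 8). Mmp8 is higher in pristane than in untreated mice at each week, the arrays of the brighter Mmp9 probe set overlap between treatments at each week with 1 low pristane array at week 14, and 6 of 8 pristane arrays exceed all untreated arrays for Adam8 at week 14.

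The 3 genes also varied together among arrays of the same group. With the group means removed, Mmp8 and Mmp9 correlated over the 88 arrays at r = 0.63 (Spearman rho = 0.61), Mmp8 and Adam8 at r = 0.61 (rho = 0.60) and Mmp9 and Adam8 at r = 0.72 (rho = 0.66). Permutation within groups gave a p of 1e-05 for each r and rho, before and after adjustment over the 3 pairs, the smallest that 100000 draws can give. Without the 2 arrays farthest from the median of the first gene named, r was 0.56, 0.56 and 0.64. Within single groups r was above 0 in 11 of 11 groups for each pair and ran from 0.11 to 0.93. The mature neutrophil markers varied in the same way, with r = 0.79 for Mmp8, 0.83 for Mmp9 and 0.76 for Adam8. Only group means were removed. The interquartile ranges of the arrays, which ran from 2.74 to 3.78, were not adjusted for, and their part in these correlations was not tested.

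The genes most like each protease over the 88 arrays were then named, by Pearson's r between representative probe sets. These values include the differences between groups, and all genes share the arrays. For Mmp8 they were Lcn2 (r = 0.95), Stfa2l1, Mrgpra2b, S100a8 and S100a6. Lcn2 encodes lipocalin 2 of specific granules, a protein known to bind gelatinase B. For Mmp9 they were Stfa2l1 (r = 0.92), Mgam, Ccr1, Hdc and Asprv1, with the stefin gene Stfa2l1, for a cysteine protease inhibitor, first. For Adam8 they were Hdc (r = 0.92), Csf3r, Sfxn5, Vti1b and Lrg1, of which Hdc makes histamine and Csf3r is the receptor for granulocyte colony-stimulating factor.

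With the group means removed, Lcn2 remained first for Mmp8 (r = 0.78), followed by S100a6, Pglyrp1, Stfa2l1 and S100a8. Stfa2l1 remained first for Mmp9 (r = 0.83), followed by Ccr1, S100a11, Hdc and Mgam. For Adam8 the order was Sfxn5 (r = 0.82), Il1f9, Csf3r, Ccl6 and Vti1b. None of the 3 proteases was among the 5 genes closest to another. On this scale Adam8 ranked 19th for Mmp9 and 38th for Mmp8, and Mmp9 ranked 28th for Mmp8.

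The other members of both protease families were read in the same comparisons. Of the 16 other Mmp genes measured, 0 were called at weeks 2, 4, 8 and 12. At week 14, where 12.7% of all genes were called higher, 3 were called, all higher. These were Mmp23 with a log2 difference of 0.74, Mmp3, or stromelysin 1, with 0.51 and Mmp7, or matrilysin, with 0.36. The median of the 16 at week 14 was 0.14, close to the 0.12 of all genes. The mean log2 signal of the 16 was 3.19 to 3.44 by group, below the median of 3.89 over all values. Signals this low limit what the presence or lack of a call can show. Mmp19 and Mmp24 did not pass at any week, with differences at week 14 of 0.28 and 0.01. Mmp25, a protease of the neutrophil membrane, was not analysed here, as it had no probe set of its own among those tested.

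Among 22 other ADAM genes, Adam19 was the only one called at weeks 2 and 8, with log2 differences of 1.18 and 1.26, and Adam10 the only one at week 12, with 0.70. No other ADAM gene was called at week 4. At week 14, 6 were called higher, among them Adam15 with 0.85, Adam23 with 0.91 and Adam10 with 0.52, and 1 was called lower. The latter was Adam17, the sheddase known for releasing tumour necrosis factor and L-selectin, at -0.70 (adjusted p = 0.00317). Over all genes, 2.29%, 2.18%, 1.85%, 2.7% and 12.7% were called higher at weeks 2, 4, 8, 12 and 14. The shares called lower were 1.29%, 0.801%, 0.778%, 1.06% and 9.72%. Adam8 (4.81-fold higher) and Adam17 thus passed in opposite directions at week 14.

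**Figure D4:**
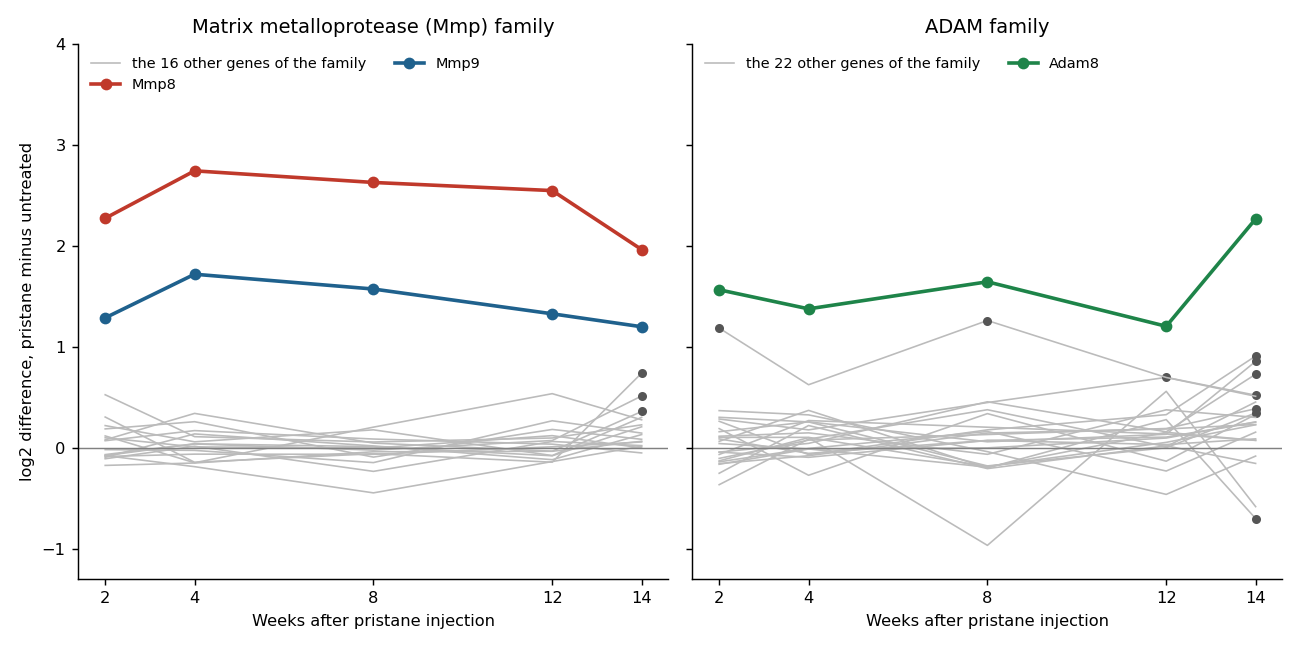
Log2 difference between pristane and untreated mice (vertical axis) by weeks after injection (horizontal axis) for 18 Mmp genes (left) and 23 ADAM genes (right), with 1 line per gene. Coloured lines are Mmp8, Mmp9 and Adam8, grey lines the other genes, and dark points mark a grey gene at an adjusted p under 0.05. The 3 coloured lines lie above every grey line at each week, with Adam19 the nearest at weeks 2 and 8. The grey Mmp genes had a mean log2 signal of 3.19 to 3.44 by group, below the median of 3.89 over all values.

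The genes for inhibitors of these proteases gave 0, 0, 1, 0 and 2 calls of 6 at the 5 weeks, all higher, beside the shares of all genes given above. Timp1, the inhibitor that binds gelatinase B, differed by 0.18, 0.17, -0.11, 0.12 and 0.27 on the log2 scale at the 5 weeks and was not called. Timp2 and Timp3 were called higher at week 14 only, by 0.75 and 0.97, and Reck, a membrane-anchored inhibitor, at week 8 only, by 1.51. Differences between weeks were not tested for these genes.

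Of 11 activators and partners, 1, 3, 4, 4 and 3 were called higher and none lower. Among all genes the shares called higher were 2.29%, 2.18%, 1.85%, 2.7% and 12.7%. Lcn2 rose at all 5 weeks by 2.55, 3.23, 2.98, 2.81 and 2.18. Mpo, the myeloperoxidase of primary granules, was called at weeks 4, 8, 12 and 14 by 0.98, 1.35, 0.82 and 0.80, and Prtn3, or proteinase 3, at weeks 8 and 14 by 0.98 and 0.83. Cd44, a surface receptor that holds gelatinase B, was called at week 12 by 0.59. Elane, or neutrophil elastase, had differences between 0.01 and 0.28 and was not called, and neither was Furin, a convertase of precursor proteins, at 0.14 to 0.30.

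Of 16 genes for substrates and shed receptors, 2, 3, 2, 2 and 6 were called higher and 0, 0, 0, 1 and 2 lower. The shares of all genes were 2.29%, 2.18%, 1.85%, 2.7% and 12.7% higher and 1.29%, 0.801%, 0.778%, 1.06% and 9.72% lower. Cd14 was called at all 5 weeks, by 1.57, 1.49, 1.50, 1.48 and 0.92, and the tumour necrosis factor receptor gene Tnfrsf1a at weeks 4, 12 and 14, by 1.02, 0.83 and 0.93. Il1b, for interleukin 1 beta, was higher by 1.20 at week 2 and 0.57 at week 14. Selplg, the ligand of P-selectin, was called at week 14 by 0.62 (adjusted p = 0.0495). Fcer2a, the low-affinity IgE receptor, fell by 1.30 at week 12 and was also called lower at week 14, where Il6ra fell by 0.58. The collagen gene Col1a1 was called at week 14 by 0.58, on an array of blood.

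The genes of gelatinase granules, where Mmp9 is mainly stored, and of secretory vesicles were mixed. Of 14 measured, 3, 5, 3, 4 and 2 were called higher and 0, 0, 0, 0 and 1 lower, beside the shares of all genes given above. Hp (haptoglobin) rose by 1.38, 1.29, 1.15, 1.44 and 0.99 and Mcemp1 by 1.64, 1.93, 1.28, 1.09 and 0.79. Itgam, the alpha chain of the Mac-1 integrin, was called at weeks 4, 8 and 12 by 1.14, 0.80 and 0.82. Cybb, the catalytic chain of the phagocyte oxidase, was higher at week 4 by 1.16 and lower at week 14 at -1.10. Lyz2 and Ptprc were not called at any week.

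Markers of other blood cells moved with treatment too, and their part in the 3 genes was not tested. At week 14, 12.7% of all genes were called higher and 9.72% lower, and at the other weeks at most 2.7% and 1.29%. Of 13 monocyte and macrophage markers, 1, 3, 1, 4 and 2 were called higher and 1, 0, 1, 1 and 2 lower, and their mean ran from 6.21 to 8.43 over the untreated and from 6.45 to 8.30 over the pristane arrays. Of 7 basophil and mast cell markers, 1, 2, 3, 5 and 4 were called higher, with Hdc, which was among the genes most like Adam8, the one called at week 2. Of 5 eosinophil markers none was called higher at any week and 1 was called lower, at week 14. Of 9 B cell markers 2, 4, 1, 3 and 6 were called lower, of 8 T cell markers 0, 1, 0, 1 and 3, and of 8 NK cell markers 3, 1, 3, 0 and 3, with 1 NK cell marker higher at each of weeks 12 and 14. Of 8 erythroid markers 3 were called higher, at week 14. All 10 platelet markers were called higher at week 14 and 0 at the other weeks, and platelet means at week 14 were 10.22 to 11.20 after pristane and 9.47 to 10.16 in untreated mice. Of the 10 interferon-induced genes 9 were called higher at each week. With the group means removed, r with the platelet mean was 0.24 for Mmp8, 0.10 for Mmp9 and 0.14 for Adam8, and r with the monocyte mean was 0.35, 0.35 and 0.30. It was 0.35, 0.48 and 0.47 with the basophil and mast cell mean and 0.56, 0.43 and 0.35 with the interferon mean. With the erythroid mean it was -0.21, -0.33 and -0.30, and with the eosinophil, B cell, T cell and NK cell means it ran from -0.05 to 0.26.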

How the data were processed

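Whole blood RNA had been extracted with Trizol and RNeasy columns, treated with DNase I, labelled with the NuGEN Ovation chemistry and hybridised to Affymetrix HT-MG-430 PM arrays. The authors deposited log2 signals normalised by RMA, and the submitters' processing notes name RMA and Partek. RMA equalises the distributions of arrays processed together, yet the interquartile ranges of the deposited arrays ran from 2.74 to 3.78, so a fit with that range as a covariate was an alternative. Values ran from 0.736 to 13.8 with a median of 3.89. Arrays give no read depth, and the number of arrays limits the precision. Fold changes come from the log2 scale, and RMA is known to compress large ones.

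Of 45141 probe sets, 104 controls were left out. The other 45037 comprised 28898 with 1 gene symbol in the platform annotation, 551 with several and 15588 not listed there. A model of 11 group means over the 88 arrays was fitted in limma 3.58.1 (R 4.3.3), with 77 residual and 5.81 prior degrees of freedom, after the limma analysis named in the study's methods. P values were adjusted by the Benjamini-Hochberg method over all tested probe sets of a comparison, and an adjusted p under 0.05 was called. Shares of all genes count 1 probe set per gene, the one with the highest mean over the 88 arrays. Lists were matched by symbol or Entrez identifier. Samples were grouped by treatment and week from the labels, and no column was left unassigned.

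The exact permutation tests used all 12870 regroupings of 8 against 8 arrays, with a smallest p of 0.0001554, adjusted over 18 tests. Correlations used 100000 permutations within groups. These steps ran in Python 3.11.15 with NumPy 2.4.6, SciPy 1.17.1 and pandas 2.3.3. The scripts were tested on simulated data. Upstream sequences were taken from a RefSeq table for GRCm38.p6.

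The genes and lists were chosen with earlier results of these data known. The named genes are the 3 proteases, the 5 genes most like each by Pearson's r with and without the group means, and from each pathway list at most 4 members called at week 14, by moderated t, and the 4 brightest. Other list members, such as those called only at earlier weeks, were named after their values were seen. The comparison of the Adam8, Mmp8 and Mmp9 excess between weeks, the fits without the pair of arrays that stood apart, the second Mmp9 probe set in the comparison with the markers and the shortened marker list were chosen after the data were seen. The alternatives were quantile normalisation, median centring, the interquartile range as a covariate, a filter on dim probe sets, the second Mmp9 probe set, only the groups compared, a trended robust fit, array weights, the replicate number as a block, other control groups, each array left out in turn and the immature granule list.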

Additional observations from a re-analysis of the deposited data

Results flagged for a closer look

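A pair of single arrays lay far from the rest of their group. For the brighter Mmp9 probe set, pristane week 14 replicate 7 was at 7.18 on the log2 scale, with the nearest array of its group at 9.44, and the gap made up a share of 0.662 of the whole range of the group. For the second Mmp9 probe set, pristane week 4 replicate 1 was at 7.19, with the nearest array at 8.92 and a share of 0.653. The critical share for 8 arrays is 0.526. Of 44 groups examined, 2 passed it, and chance alone passes it in about 1 in 20 groups. Both arrays were also the lowest of their group for Mmp8, Adam8 and the neutrophil marker mean, and no cause was tested.

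The excess of Adam8 over the mature neutrophil markers differed between weeks by a test of the difference itself. The effect at week 14 exceeded that at week 2 by 0.99, at week 4 by 1.23, at week 8 by 0.76 and at week 12 by 1.18 on the log2 scale (permutation test, adjusted p = 0.00152, 0.00102, 0.0377 and 0.00102). With the immature granule genes in place of the markers, the differences from weeks 2 and 8 did not pass (0.57 and 1.16, permutation test, adjusted p = 0.529 and 0.0824). The 4 differences share the arrays of week 14. Minus the markers, Adam8 averaged -1.62 in untreated mice of week 14 and -1.24 to -0.93 in those of the other weeks. After pristane it averaged -0.57 at week 14 and -1.18 to -0.81 at the other weeks. The untreated arrays of week 14 differed from those of week 2 at 24.3% of genes, and all 10 platelet markers were called higher after pristane at week 14. Neither was tested as a part of the Adam8 difference.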

How the results depend on the processing

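The pristane effects on Mmp8, Mmp9 and Adam8 kept their direction and their call at all 5 weeks under 142 of 143 values from other settings. The exception was the second Mmp9 probe set at week 2, at 0.54. With each array left out in turn all 240 values kept both, from 1.77 to 3.09 for Mmp8, 1.05 to 1.94 for Mmp9 and 1.09 to 2.48 for Adam8. With the replicate block the genes called went from 612 to 759 at week 2 and from 3830 to 4337 at week 14, and no call on the 3 genes changed. The replicate numbers are not known to pair samples. With group means removed, arrays of the same number in a week correlated at 0.044 on average, against -0.005 for different numbers. Of the 40 same-number pairs, 10 exceeded 0.1. Across weeks the averages were 0.067 against -0.008 after pristane and 0.052 against -0.007 in untreated mice.

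The Adam8 call between pristane weeks 14 and 2 (0.78) was lost with only those groups in the fit and in 9 of 16 refits. These left out week 14 replicate 1, 3, 5 or 6 or week 2 replicate 3, 5, 6, 7 or 8, with values from 0.63 to 0.78. The Adam8 effect at week 14 minus week 12 passed under quantile normalisation (1.18), the interquartile range covariate (1.29) and array weights (1.27), and that minus week 4 under the covariate (1.13).

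With the immature granule list the excess over markers was no longer called for Mmp8 at weeks 4 (0.92) and 14 (0.54), for Adam8 at week 14 (0.84) and for Mmp9 in spontaneous disease (0.57). It turned sign for Mmp9 at weeks 4, 8 and 12 (-0.11, -0.39 and -0.36) and Adam8 at week 8 (-0.32), none of them called in the report. The difference of the Adam8 excess between week 14 and weeks 2 and 8 lost its call with that list (0.57 and 1.16), and Mmp9 turned sign against weeks 2, 8 and 12 (-0.22, 0.16 and 0.14). Uncalled excess values that turned sign were Mmp9 at week 12 under quantile normalisation (-0.054) and at week 14 without the pair of arrays (0.22). Between weeks they were Mmp8 against week 2 (0.080) and Mmp9 against week 12 (0.042) under quantile normalisation, and Mmp9 against weeks 4 and 12 without the pair (0.047 and 0.22).

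With the second Mmp9 probe set its excess was called at week 2 (-0.96) and turned sign at weeks 4, 8, 12 and 14 (-0.20, -0.12, -0.12 and 0.41). Between weeks, week 14 minus week 2 was called (1.37), and the differences from weeks 4, 8 and 12 turned sign (0.61, 0.53 and 0.53).

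Other uncalled values turned sign. Under quantile normalisation these were untreated week 14 against week 2 for Mmp9 (-0.12) and Adam8 (-0.13) and the Mmp9 effect at week 14 minus week 2 (0.087). Median centring turned Mmp9 in untreated week 4 (0.0026). The covariate turned Mmp8 in untreated week 4 (-0.013), untreated week 14 for Mmp9 (-0.45) and Adam8 (-0.35), and the Mmp9 effect at week 14 minus weeks 2 (0.28) and 12 (0.12). Array weights turned Mmp9 in untreated week 4 (0.13) and pristane week 14 (0.064). The second probe set turned Mmp9 in untreated weeks 12 and 14 (-0.26 and -0.73), in pristane week 14 (0.35), and in the effect at week 14 minus weeks 2, 4, 8 and 12 (1.08, 0.27, 0.39 and 0.42). Leaving out 1 array gave ranges across 0 for untreated week 14 in Adam8 (-0.025 to 0.18) and Mmp9 (-0.13 to 0.17), untreated week 4 in Mmp8 (-0.19 to 0.21) and Mmp9 (-0.18 to 0.13), pristane week 14 in Mmp9 (-0.19 to 0.30), and the Mmp9 effect at week 14 minus weeks 2 (-0.25 to 0.28) and 12 (-0.27 to 0.24). The cause was not tested for any of these.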

Other observations

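With the 11 neutrophil markers called at week 14 alone, Mmp8 exceeded their mean by 0.73, 1.18, 1.12, 1.17 and 0.40 on the log2 scale at weeks 2, 4, 8, 12 and 14 and by 0.15 in spontaneous disease. Mmp9 differed from it by -0.26, 0.16, 0.06, -0.05 and -0.36, and by 0.41 in spontaneous disease. These values carry no test, since the markers were chosen by their values.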
